A study of Mus musculus with 3 samples.

Results

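The CCGG sites described here carried MethylRAD reads in undifferentiated and in untreated differentiated mouse embryonic stem cells (ESCs). In the list of the pargyline-treated cells they had no row of type M. They were chosen by measured read counts, as autosomal CCGG sites of type M with 15 or more reads in both of the first 2 libraries and no such row in the third. The rule found 4248 member sites among 504604 eligible sites, those with 15 or more reads in the undifferentiated and the untreated library, which is 0.842% of them. The lists carry a type letter for each row, M for most and S, D or I for others, and the sources used here do not spell the letters out. In all, 969569 autosomal CCGG sites were listed in 1 library or more. The mirror set reverses the roles of the 2 differentiated libraries. It holds 744 of 460650 sites with 15 or more reads in the undifferentiated and the treated library (0.162%).

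The cells were E14Tg2A, a wild-type mouse ESC line. The undifferentiated cells were kept in medium with leukemia inhibitory factor (LIF, day 0), the untreated cells were differentiated to day 7 by withdrawing LIF and adding retinoic acid, and the treated cells were given 3 mM pargyline, an inhibitor of the histone demethylase LSD1, before differentiation was induced and went through the same 7 days in its presence. Each condition is 1 library, so no difference below has a replicate check and no test between conditions was possible. The line is a single genetic background, and a treated culture cannot be told apart from a library effect.

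DNA methylation in mammals sits mostly on cytosines followed by guanine, where DNMT3A and DNMT3B place it and DNMT1 copies it after replication. LSD1 removes methyl groups from histone H3 lysine 4, a mark that blocks the DNMT3 enzymes from binding the histone tail, and enhancers of pluripotency genes are places where LSD1 acts as ESCs differentiate. MethylRAD reads this methylation with FspEI, an enzyme that cuts on both sides of a methylated CCGG motif and releases a short fragment of up to 32 bp with the motif at its centre. More reads at a site stand for more methylated copies, and an unmethylated site gives none.

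The deposited lists start at 5 reads. A site without a row of type M therefore had anywhere from 0 to 4 reads of that type, and a missing row is not a measured absence of methylation.

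Sequences of the member sites with the highest counts are shown first, because these sites have most reads to lose, followed by a pair of members on 1 fragment and by the mirror site with the highest counts. Each line gives 30 bases of the forward strand of the RefSeq GRCm38.p6 assembly, 5′ to 3′, and capitals mark the 4 bases of the listed motif. An intergenic site is named by the coding gene with the nearest start site.
Ccnf intron, chr17:24230574-24230603: cttagaactgattCTGGgaagccacatggt
Near Ctcfl, chr2:173090207-173090236: gcgtacactgtccCCGGaggcaagaagagg
Ints7 intron, chr1:191616215-191616244: gtttgccacgtggCCGGtcacctcgaattc
Fam169b intron, chr7:68284024-68284053: gtactggtgagcaCCGGaaacatgatgctc
Pair near Cldn5, first site, chr16:18733197-18733226: cagtcccttctatCCGGccggcacattagc
Pair near Cldn5, second site, chr16:18733201-18733230: cccttctatccggCCGGcacattagctgac
Mirror site near Fam3b, chr16:97535003-97535032: tcttgccccttctCCGGgagctgtcacttc

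The first of these lines shows that the member with the highest counts was not missing at all. At chr17:24230587-24230590, in an intron of Ccnf, which encodes cyclin F, the undifferentiated library had 105 reads and the untreated one 140. The reference motif there is CTGG, not CCGG, and the treated list holds the same position with 81 reads under type S. It was the only member whose reference was not CCGG and the only one with another CCGG row at its own position in the treated list. A treated row of any kind lay within 4 bp of 13 members.

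The other 9 members with the highest counts carried 47 to 101 reads in the undifferentiated and 47 to 59 in the untreated library. The site at chr2:173090220-173090223, between genes and 29305 bp from the nearest start site of a coding gene, Ctcfl, which encodes a germ cell relative of CTCF, had 73 and 59 reads. No other CCGG site was listed within 1 kb of it. The site at chr1:191616228-191616231, in an intron of Ints7, a subunit of the Integrator complex, had 59 and 54 reads, yet the 3 CCGG sites listed within 1 kb of it kept 32, 21 and 21 treated reads. At these neighbours the untreated library had 63, 17 and 73 reads. Each kept a treated row, but the first and the last had fewer treated than untreated reads.

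Other named members also had neighbours that kept a treated row. The site at chr7:68284037-68284040 in an intron of Fam169b had 61 undifferentiated and 52 untreated reads, and its only listed neighbour, 695 bp away, had 7 untreated and 17 treated reads. Beside the site at chr13:53666214-53666217 (61 and 49 reads), 193140 bp from Msx2, which encodes a homeobox factor, a site 79 bp away kept 86 treated reads against 172 untreated, while 2 of the 5 listed neighbours, with 6 reads in the 1 library that listed each, had no treated row. The site at chr3:57665883-57665886 in an intron of Ankub1 (49 and 53 reads) had a neighbour with 93 untreated and 57 treated reads. Beside the site at chr2:113304942-113304945 (55 and 48 reads) a neighbour 307 bp away fell to 15 treated reads from 33 untreated ones. The sites at chr7:79028421-79028424, in an intron of the antisense gene Gm26633 (61 and 48 reads), and chr2:166108006-166108009, in an intron of Sulf2, which encodes a heparan sulfate sulfatase (101 and 47 reads), had no other listed CCGG site within 1 kb. The 10 mirror sites with the highest counts had fewer reads, 28 to 50 undifferentiated and 28 to 41 treated.

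Members as a whole had few reads. Their median was 27 reads in the undifferentiated library (quartiles 20 and 41, range 15 to 134) and 18 in the untreated one (quartiles 16 and 22, range 15 to 140), against medians of 41 and 50 over all eligible sites. Of the members, 656 had exactly 15 untreated reads and 2480 had 15 to 19. Just outside the limit, 771 further sites had 14 untreated reads, 15 or more undifferentiated reads and no treated row. These counts follow from the rule and are given as a description.

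Treated counts just above the limit of the list were common at eligible sites. Among eligible sites, 2451 had 5 treated reads, the lowest count that is listed, and 19247 had 5 to 9. The number of sites rose with each further read up to 20, as the plot of counts in the remaining library shows. On autosomal CCGG sites the treated library had the fewest reads, 24778383 against 30438782 in the undifferentiated and 35286914 in the untreated library. It listed the most such sites, 846175 against 826593 and 837735, and its median there was 23 reads a site, against 27 and 30. Over all rows, other motifs included, it did not have the fewest, with 42020661 reads against 40176194 and 45216192.

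**Figure D1:**
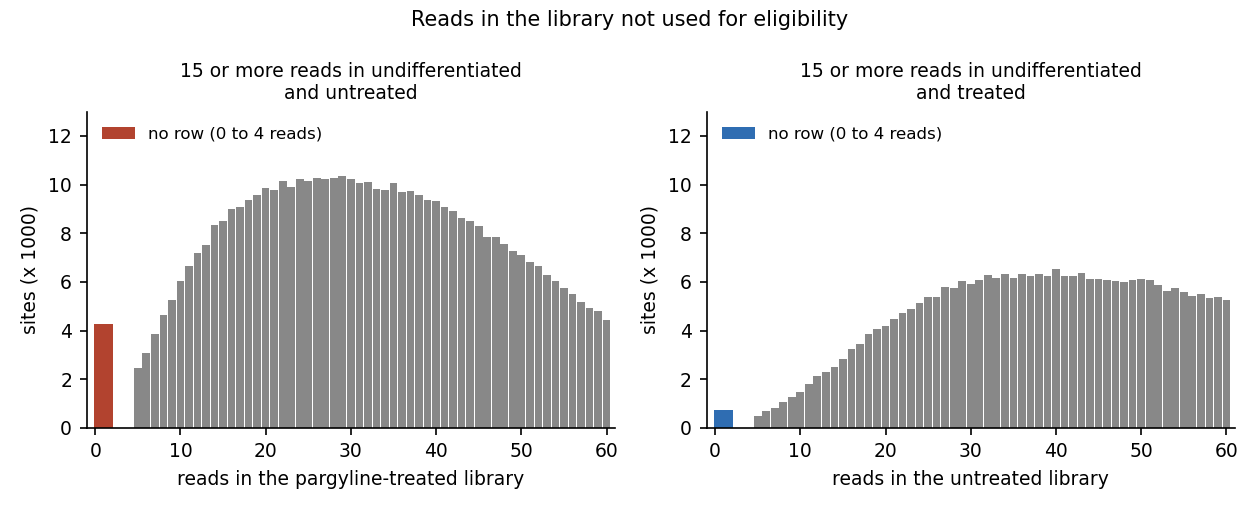
Number of eligible sites (vertical axis, in units of 1000 sites) at each read count from 5 to 60 in the library that did not decide eligibility (horizontal axis, reads), with 1 coloured bar for all sites without a row. The 4248 members on the left and the 744 mirror sites on the right stand left of the listed counts, which start at 2451 sites of 5 treated reads and at 466 sites of 5 untreated reads.

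The excess of members over mirror sites did not hold when the CCGG totals of the libraries were made equal. Reads of the deeper libraries were drawn at random until each had the CCGG depth of the treated one, and sites left with under 5 reads were dropped. Then 1337 of 428010 eligible sites had no treated row (0.312%, 95% Wilson interval 0.296 to 0.330%) and 1605 of 429093 had no untreated row (0.374%, 0.356 to 0.393%). As deposited, the intervals were 0.817 to 0.867% for the members and 0.150 to 0.174% for the mirror set. The direction of the comparison therefore turned under thinning, although the median log2 ratio of treated to untreated count was still -0.15 there. Equal CCGG totals also take out any library-wide difference in CCGG reads, so depth and such a difference cannot be told apart. With the minimum set at an equal RPM (count scaled to library size) instead, the direction did not turn, at 0.274% for the members and 0.0480% for the mirror set. That setting moves only the minimum and leaves the list limit of 5 reads and the unequal CCGG totals in place. Here and below, intervals cover counting error only, since copies made by PCR were not separated and sites of 1 library are not replicates.

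The share of eligible sites without a treated row fell steeply with depth. By the smaller of the 2 counts it was 3.51% at 15 to 19 reads, 1.41% at 20 to 24, 0.538% at 25 to 29, 0.117% at 30 to 39 and 0.0221% at 40 to 59. Among 95638 sites with 60 or more reads in both libraries 1 had no row of type M, and that is the Ccnf site. The mirror set fell from 0.711% at 15 to 19 reads to 0.00520% at 30 to 39, with 0 of 105980 sites at 40 to 59 reads and 0 of 33604 above, where a count of 0 allows up to 0.00362% and 0.0114% (Wilson). With 30 or more reads in both libraries 131 members (0.0439%) and 5 mirror sites (0.00212%) were left.

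A missing treated row went mainly with the untreated count and less with the undifferentiated one. Among sites with 15 to 19 untreated reads, 5.90% had no treated row where the undifferentiated library had 15 to 19 reads (interval 5.45 to 6.38%), 7.28% where it had 40 to 59 (6.66 to 7.97%) and 6.92% where it had 60 or more (6.06 to 7.89%). Among sites with 20 to 29 untreated reads the share was between 1.91 and 2.08% in every undifferentiated class. With 30 to 39 untreated reads it was 0.440% at 15 to 19 undifferentiated reads and 0.231 to 0.402% above, and with 40 to 59 it was 0.133% and 0.0153 to 0.0519%. In the mirror set the share at 15 to 19 treated reads fell from 2.08% to 0.419% as the undifferentiated count rose from 15 to 19 up to 60 or more. In thinned counts the share without a treated row at 15 to 19 reads lay between 1.84 and 2.23% in the 5 undifferentiated classes and no longer rose with the undifferentiated count, and that without an untreated row still fell from 3.51% to 0.947%.

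**Figure D2:**
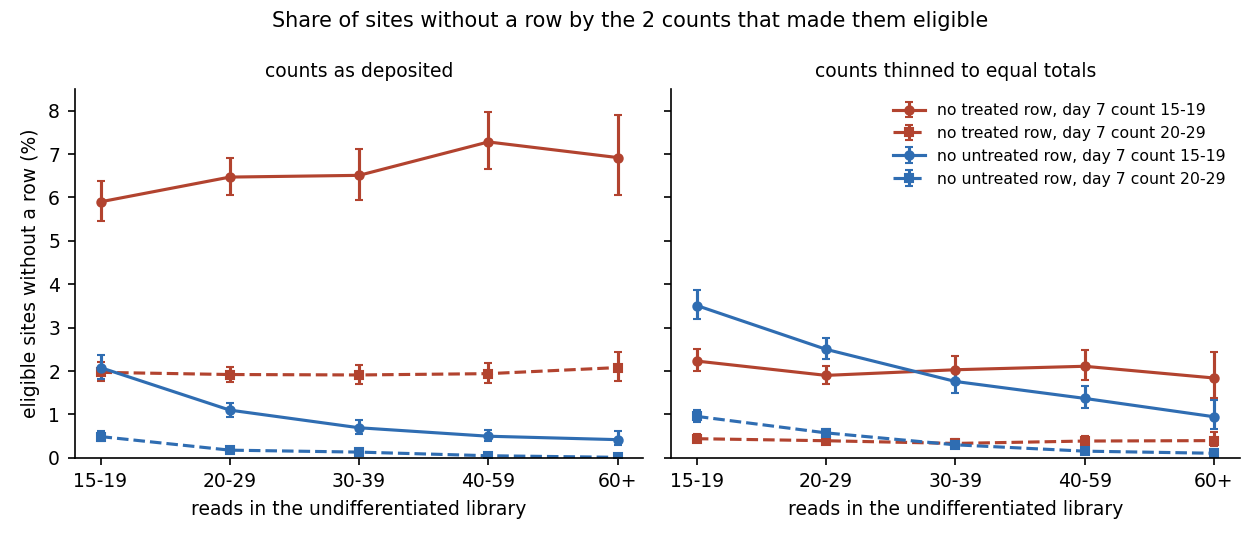
Percent of eligible sites without a row (vertical axis) by the read count of the undifferentiated library (horizontal axis, classes of reads), for sites with 15 to 19 (solid, circles) and 20 to 29 (dashed, squares) reads in the day 7 library that made them eligible, with 95% Wilson intervals. The red lines (no treated row) range from 5.90 to 7.28% for 15 to 19 reads as deposited and 1.84 to 2.23% thinned, while the blue lines (no untreated row) fall to the right in both panels.

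The ratio of the untreated to the undifferentiated count is built from the counts of the rule and is given as a description. The untreated count was below the undifferentiated one at 75.0% of members (median log2 ratio -0.52, quartiles -1.11 and -0.04), against 35.6% of all eligible sites (median 0.26). Among eligible sites with 15 to 24 untreated reads and a treated row, a group chosen after the values were seen whose low untreated count itself fixes a low ratio, it was 74.9% (median -0.49).

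Most members lay in introns (44.7%, 1897 sites) and in distal intergenic sequence (41.0%, 1741 sites). Promoters, which here reach 1 kb up and down from any start of transcription, held 244 members (5.74%, interval 5.08 to 6.48%), exons 269 (6.33%), 3′ UTRs 79 (1.86%), 5′ UTRs 6 and the 300 bp downstream of genes 12. All eligible sites gave 5.53% in promoters, 45.3% in introns, 39.3% in distal intergenic sequence and 7.29% in exons. The interval of the members' exon share, 5.64 to 7.10%, lay below the eligible one, and that of their distal intergenic share, 39.5 to 42.5%, lay above. At 15 to 19 untreated reads, 5.87% of exon sites (5.04 to 6.83%) and 6.54% of the others (6.29 to 6.80%) had no treated row, and these intervals overlapped, as did those of distal intergenic sites (6.72%, 6.33 to 7.13%) and the others (6.34%, 6.04 to 6.67%). In thinned counts at 20 to 29 reads the exon share, 0.196% (0.115 to 0.335%), lay below that of the others, 0.405% (0.365 to 0.451%). At 15 to 19 thinned reads the intervals overlapped (1.91 and 2.05%). The thinned mirror set also held few exon sites, 5.61% (4.58 to 6.84%) against 7.32% of its eligible sites. The median distance of members to a start site was 14805 bp, beside 14852 bp for all eligible sites.

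The mirror set held a larger share of promoter sites. There 80 of 744 sites (10.8%, 8.72 to 13.2%) were in promoters, against 5.57% of its eligible sites, and after thinning the share was 8.29% (7.04 to 9.74%) against 5.83% (4.70 to 7.22%) for the members. Within sites of 15 to 19 day 7 reads, 5.59% of promoter sites had no treated row and 6.56% of other sites, while 1.80% of promoter sites had no untreated row and 0.960% of others. Promoters were thus not over-represented among the sites missing with pargyline.

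**Figure D3:**
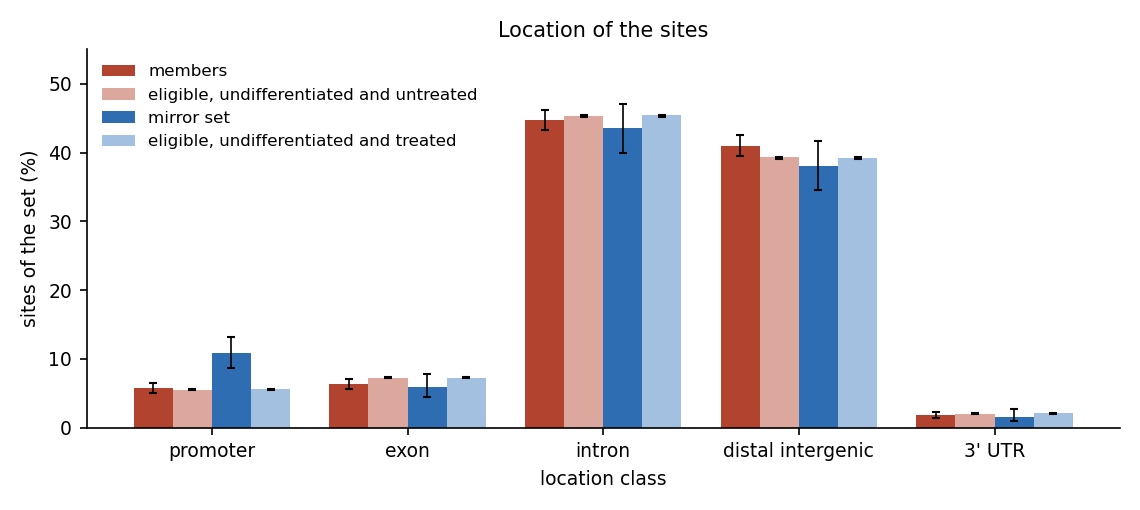
Share of sites (vertical axis, percent of the set) in 5 location classes (horizontal axis) for the 4248 members, the 744 mirror sites and the eligible sites of each, with 95% Wilson intervals as bars. Members (dark red) stand close to their eligible sites (light red) in each class, and the mirror set (dark blue) stands above its own in promoters, at 10.8% against 5.57%.

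CpG density was classed in 500 bp windows recomputed on the reference, with limits taken from the study's methods (low, a ratio of observed to expected CpG below 0.48, and high, above 0.75 with over 55% G and C). The classes are those of this recomputation and should not be read as the classes assigned in the study. By these limits 94.1% of members were in low CpG windows, 5.77% in intermediate ones (5.11 to 6.51%) and 4 sites in high ones. The eligible sites had 94.8, 5.05 and 0.102%, and those with 15 to 24 untreated reads and a treated row had 6.02% in intermediate windows. After thinning the members had 6.21% there (5.04 to 7.63%), against 4.89% of eligible sites. At 15 to 19 untreated reads, 5.61% of sites in intermediate or high windows had no treated row (4.76 to 6.62%) and 6.55% of the others (6.30 to 6.81%), and at 20 to 29 reads it was 103 of 4488 (1.90 to 2.78%) and 1374 of 71390 (1.83 to 2.03%). Intermediate windows held 9.95% of the mirror set and 7.91% after thinning. The 200 bp around a member held 3 CpGs at the median and 48.0% G and C, against 3 and 49.0% for eligible sites.

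Members fell more often in masked sequence, the interspersed repeats and low-complexity stretches that RefSeq writes in lower case. Of the members 658 were in such sequence (15.5%, 14.4 to 16.6%), against 10.4% of eligible sites, 12.6% of eligible sites with 15 to 24 untreated reads and a treated row, and 9.54% of the mirror set. Among sites with 15 to 19 untreated reads 8.01% of masked sites (7.29 to 8.80%) and 6.27% of the others (6.01 to 6.53%) had no treated row, and at 20 to 29 reads 2.41% (2.12 to 2.74%) and 1.88% (1.78 to 1.99%). After thinning the values at 15 to 19 reads were 2.26% (1.90 to 2.68%) and 2.01% (1.88 to 2.15%), with overlapping intervals, while 13.8% of all thinned members (12.0 to 15.7%) and 10.0% of thinned eligible sites were masked. Only 1 member (0.0235%) lay in a stretch of 32 bp found more than once in the genome, beside 0.0172% of eligible sites. Reads that mapped more than once had been dropped by the authors, so few such sites could be listed at all.

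Base composition of the fragment separated the 2 sets more than location did. Where under 40% of the 30 bases around a site were G or C, 14 of 5081 eligible sites had no treated row (0.276%, 0.164 to 0.462%), against 0.835% at 40 to below 50%, 0.911% at 50 to below 60% and 0.787% at 60% or more. The mirror set ran the other way, with 63 of 5595 sites (1.13%, 0.881 to 1.44%) under 40% and 0.200, 0.121 and 0.161% in the classes above. Among sites of 15 to 19 day 7 reads the lowest class gave 1.16% without a treated row, where the others gave 5.90 to 7.53%, and 4.44% without an untreated row, where the others gave 0.833 to 1.24%.

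This pattern was still there in thinned counts, where the lowest class had 0.257% of sites of 15 to 19 reads without a treated row and 9.87% without an untreated row. It also extended to eligible sites that kept a row, whose median log2 ratio of treated to untreated count was 0.00 under 40% and -0.51, -0.69 and -0.61 in the classes above. The treated library thus held relatively more reads at AT-rich fragments among eligible sites that are not members. Whether this came from the libraries or from methylation was not tested. Because AT-rich fragments were few, the mean over all members, 56.3% ± 7.24 (SD over 4248 sites), was close to that of eligible sites, 56.6% ± 7.89 (SD over 504604 sites), and the mirror set had 55.1% ± 10.8 (SD over 744 sites).

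**Figure D4:**
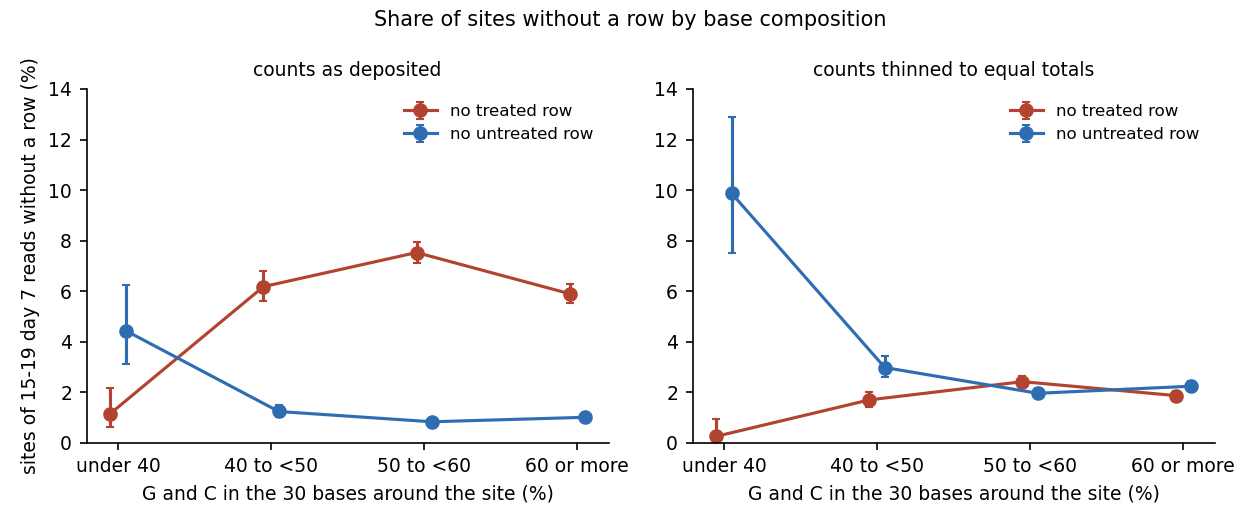
Percent of sites with 15 to 19 reads in the day 7 library of the rule that had no row in the other day 7 library (vertical axis), by the share of G and C in the 30 bases around the site (horizontal axis, percent), with 95% Wilson intervals, as deposited (left) and thinned (right). Below 40% the share without a treated row (red) is lowest, 1.16% and 0.257%, and the share without an untreated row (blue) is highest, 4.44% and 9.87%.

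Members were single sites, not stretches of DNA. Only 52 of 4248 (1.22%) had another member within 1 kb, in 26 pairs and no larger group, and 14 of these pairs lay within 32 bp, close enough for their fragments to overlap. A further 12 pairs were 33 bp to 1 kb apart. Along each chromosome 4130 members stood alone among the eligible sites, and 59 runs of 2 were the longest. The mirror set had 3 pairs within 1 kb (0.806% of its sites), and all 3 were within 32 bp.

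Beyond the length of a fragment, a site near a member was missing about as often as any other. Among eligible sites 33 bp to 1 kb from the nearest member 24 of 2975 (0.807%, 0.543 to 1.20%) had no treated row, beside 0.842% of all eligible sites, and 312 of 37080 (0.841%) at 5001 to 20000 bp. Within 32 bp it was 28 of 88 (31.8%, 23.0 to 42.1%). In all, 2264 members (53.3%) had no other eligible site within 1 kb and 1932 (45.5%) had such sites, each of which kept its treated row.

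Neighbours of members that kept a row had the median ratio of the whole library. At 3011 sites within 1 kb of a member the median log2 ratio of treated to untreated count was -0.63, and over all 500356 eligible sites with a treated row it was -0.63 as well. A treated count 2-fold or more below the untreated one was seen at 26.2% of the neighbours and at 25.5% of all such sites. The 60 neighbours within 32 bp of a member had -0.76 (95% interval of the median -0.95 to -0.55), a range that takes in -0.63. Around the mirror sites the median was -0.54 at 612 sites (-0.62 to -0.49), and 21.7% (18.6 to 25.2%) were 2-fold or more below. From 33 bp outward the medians of the distance classes around members lay between -0.60 and -0.69.

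**Figure D5:**
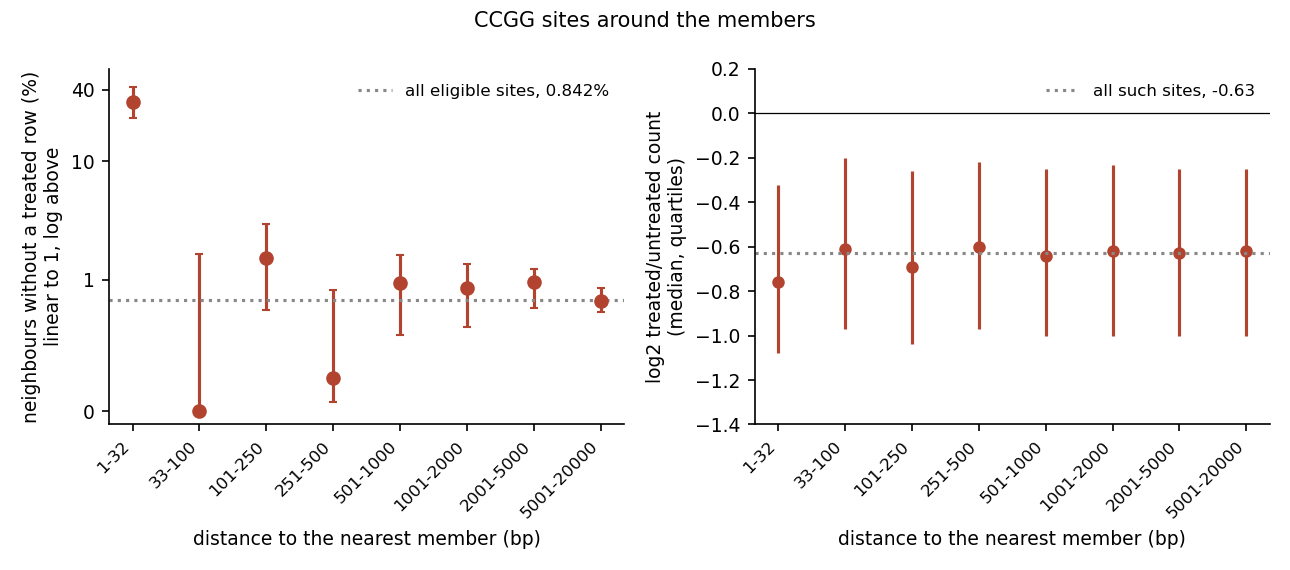
Left, percent of eligible sites without a treated row (vertical axis, linear to 1 and logarithmic above) with 95% Wilson intervals, and right, median log2 ratio of treated to untreated count with quartiles at sites that kept a row, by the distance to the nearest member (horizontal axis, bp). On the left the class within 32 bp stands apart at 31.8%, on the right the quartiles of all classes overlap, and dotted lines give all eligible sites, 0.842% and -0.63.

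The named pairs show both cases. In an intron of Dpp10, which encodes a protein that associates with potassium channels, sites 10 bp apart at chr1:123857389-123857392 and chr1:123857399-123857402 had 107 and 108 undifferentiated reads and 16 untreated reads each, the near-equal counts of shared fragments. The pair near Cldn5, 4 bp apart and 43637 bp from its start site, had 47 undifferentiated reads at both sites and 55 and 54 untreated reads, and the 5 other listed sites within 1 kb kept 6 to 35 treated reads against 9 to 41 untreated ones. Sites 12 bp apart near Fads1, a fatty acid desaturase, had 44 and 43 undifferentiated reads and 15 untreated reads each. In an intron of Ston2, which encodes a protein of synaptic vesicle endocytosis, sites 218 bp apart at chr12:91742079-91742082 and chr12:91742297-91742300 differed, with 108 and 25 undifferentiated and 22 and 16 untreated reads.

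In an intron of Syt1, the calcium sensor of synaptic vesicles, members 145 bp apart had 36 and 56 undifferentiated and 25 and 16 untreated reads. In an intron of the non-coding gene Gm8633 members 27 bp apart had 30 and 57 undifferentiated and 22 and 20 untreated reads, so even this pair within 32 bp did not have equal counts. The remaining named pairs were intergenic, 182 bp apart at 105559 bp from Sgk1 (19 and 22 undifferentiated, 36 and 37 untreated reads), 699 bp apart near Prdm10 (26 and 31, then 20 and 34), 453 bp apart near Sh3rf1 (27 and 44, then 20 and 15) and 709 bp apart near Ndufb4 (15 and 26, then 24 and 39).

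Another motif close to the members was mostly missing too. FspEI also cuts at methylated CCAGG, which is listed apart. A CCAGG row lay within 16 bp of 132 members in the undifferentiated list, and 7 of these (5.30%, 2.59 to 10.5%) had one in the treated list. At eligible sites with 15 to 24 untreated reads and a treated row it was 3163 of 3283 (96.3%). Such rows can count reads of the same fragments and are no independent measurement. The undifferentiated and untreated lists also gave the same count at 99.97% of the 268383 CCAGG sites they share, so which of the 2 libraries these rows come from is not known.

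Members were found on all 19 autosomes. The share without a treated row ran from 0.697% on chromosome 19 (103 of 14781, 0.575 to 0.844%) to 1.01% on chromosome 18 (174 of 17233, 0.871 to 1.17%), whose intervals did not overlap, and the latter lay above the 0.842% of all autosomes. As the lowest and the highest of 19 shares, these were picked by value, and the intervals make no allowance for that. The median log2 ratio of treated to untreated count at the sites that kept a row was -0.62 to -0.64 on each autosome.

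Members touched many genes once. Of 17721 protein-coding genes with an eligible site in the gene or within 1 kb of a start site, 1938 held a member, 1638 of them 1, 234 of them 2 and 66 of them 3 or more. Such genes or their start sites held 2264 members (53.3%, by coincidence the number of members without an eligible neighbour) and 54.4% of eligible sites. The share of eligible sites that were members was between 0.719% in genes under 10 kb and 0.847% in genes of 10 to 30 kb, and 0.796% in genes of 300 kb or more. A member and a mirror site occurred together in 91 genes, of 409 with a mirror site.

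The genes with most members were long. Gm20388, a predicted gene drawn over 4434882 bp of chromosome 8 and across many other genes, held 19 members among 2813 eligible sites (0.675%). Fgfr2, a fibroblast growth factor receptor, is drawn over 2960900 bp in this annotation and held 10 among 1022 (0.978%). Among shorter genes, Atp8a1, a phospholipid flippase, held 5 of 74 sites, with 15 to 45 undifferentiated and 15 to 27 untreated reads. Dlgap2, a scaffold protein of the postsynapse, held 5 of 235 (16 to 74 and 15 to 22 reads), Wwox, an oxidoreductase gene at a fragile site, 5 of 458, and Sox5, a transcription factor of chondrocyte and neural development, 5 of 281.

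Hlcs, which attaches biotin to carboxylases, held 4 of 110 sites, 1 of them with 117 undifferentiated and 18 untreated reads. Klhl29 held 4 of 114, Slit3, a secreted guidance protein, 4 of 259 and Scfd2 4 of 106. Gm20388 had 4 mirror sites, Fgfr2 2, Sox5 and Scfd2 1 each, and Dlgap2, Wwox, Atp8a1, Hlcs, Klhl29 and Slit3 none. The genes without one held 62 to 414 sites eligible for the mirror set. Over all autosomes 0.162% of such sites were mirror sites, so a count of 0 says little here. Gene borders follow the gene record, so 2 of the Sox5 members lie outside its basic transcripts and are counted as intergenic above.

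Start sites carried members in 112 of 7485 protein-coding genes with an eligible site there, 2 of which had 2. Slc7a9, a cystine and basic amino acid transporter, had sites 926 bp and 748 bp from its nearest start site, with 17 and 73 undifferentiated and 17 and 22 untreated reads. Sycp2l, a meiotic chromosome axis gene, had sites at 889 and 883 bp with 21 undifferentiated reads each and 25 and 26 untreated reads, which lie on 1 fragment. Nin, which encodes the centrosomal protein ninein, had 1 member 162 bp from a start site with 94 undifferentiated and 19 untreated reads.

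Ldhd, a D-lactate dehydrogenase, had 1 at 262 bp with 56 and 45 reads, and Gm21885 1 at 173 bp with 55 and 30. Plekhh1 had 1 at 205 bp with 52 and 27 reads, and Fbxo17, an F-box protein, 1 at 682 bp with 71 and 19. Calcb, a calcitonin gene-related peptide, Dnph1, a nucleotide hydrolase, and Kif3c, a kinesin motor, each had 1 at 868 to 968 bp, with 52 to 67 undifferentiated and 15 to 31 untreated reads.

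Gene lists chosen for this system held 0 to 8 members each, too few to place their shares closely. Pluripotency genes held 3 of 215 eligible sites (1.40%, 0.476 to 4.02%), 2 in introns of Nr5a2, an orphan nuclear receptor (26 and 17 undifferentiated, 20 and 21 untreated reads), and 1 in an exon of Zfp42, the ESC marker Rex1 (46 and 19). The list of LSD1 and its partner complexes held 2 of 655 (0.305%, 0.0838 to 1.11%), in introns of Gse1 (75 and 18) and of Mta1 (53 and 20). Genes that write or erase DNA methylation held 3 of 294 (1.02%), 2 in the de novo methyltransferase gene Dnmt3a (30 and 24, and 50 and 33 reads) and 1 in Tet3 (17 and 24), which encodes a dioxygenase that oxidises methylcytosine.

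Imprinted genes held 8 of 686 (1.17%, 0.592 to 2.28%), led by Slc38a4, an amino acid transporter expressed from the paternal allele, with 3 of 21 sites, all in introns, with 48, 28 and 28 undifferentiated and 15, 43 and 20 untreated reads. Grb10, a growth factor receptor adaptor, had 2 of 18 (15 and 17, then 19 and 16 reads) and Igf2r, the receptor that clears insulin-like growth factor 2, 1 of 33 (43 and 15). The retinoic acid list held 6 of 368 (1.63%), among them 2 in Tshz1, a zinc finger gene, 1 in the homeobox gene Meis2 and 1 within the record of the retinoic acid receptor gene Rarb (34 and 20).

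Endoderm genes held 5 of 328 (1.52%), with 1 each in Col4a1 and Lama1, which encode basement membrane proteins (46 and 33, and 35 and 30 reads), and in Afp, alpha-fetoprotein (45 and 19). Neural genes held 3 of 276 (1.09%), 2 of them in Ncam1, a cell adhesion molecule, and 1 in Cdh2, N-cadherin. Germline genes held 0 of 117, for which the Wilson interval reaches up to 3.18%. The interval of each of the 8 lists took in the 0.842% of all eligible sites, and the mirror set had 0 to 2 sites in each.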

How the data were processed

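MethylRAD libraries of undifferentiated, untreated and pargyline-treated cells were sequenced, 1 per condition. The authors trimmed reads (Trimmomatic, Cutadapt), dropped those without an FspEI site, mapped them with Bowtie2 (version 2.3.3 per the labels) to GRCm38 with up to 1 mismatch and kept reads that mapped once. The deposited values are raw read counts per site, listed from 5 reads upward, beside RPM, the count scaled by the authors to library size, used here only for an equal RPM minimum. CCAGG rows were used within 16 bp of members and comparison sites and to compare the lists, and CCTGG rows only in the search for any other row within 4 bp. The 3 lists were joined on chromosome and position. Positions were checked against the RefSeq GRCm38.p6 sequence, and genes, exons and start sites came from the basic transcripts of GENCODE M21. Shares have 95% Wilson intervals, which cover counting error only. No test between conditions was run. Counts were thinned with a fixed random seed of 7. Depth was 24778383 to 35286914 reads on autosomal CCGG sites. Functions were tested on simulated data. All steps ran in Python 3.11.15 with numpy 2.4.6, pandas 2.3.3 and SciPy 1.17.1, and matplotlib 3.10.9 drew the figures.

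The members, the mirror set and the gene lists were chosen with earlier results of these data known. Named sites were the 10 members with the largest smaller count, named pairs those with the highest summed counts, and named genes the 10 with most members in the gene and the 10 with most at start sites, ties by summed count. Comparisons within depth classes, by masking and by base composition, and the CCAGG rows, were added after the data were seen.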

Additional observations from a re-analysis of the deposited data

How the results depend on the processing

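The share of eligible sites without a treated row moved with the count minimum, from 5.93% at 5 reads, 2.21% at 10 and 0.328% at 20 to 0.0439% at 30, and was 0.274% at an equal RPM minimum and 0.312% in thinned counts. The mirror share was 3.93, 0.794, 0.0288 and 0.00212% at these minimums, 0.0480% at equal RPM and 0.374% thinned, so it was the larger of the 2 only after thinning. Classing sites by the mean of the 2 counts gave 5.47% missing at 15 to 19 reads in place of 3.51%. Promoters of 3 kb held 15.6% of members, and introns then 39.8% and distal intergenic sequence 37.3%. No member was in a high CpG window (0%) at a minimum of 30 reads or in thinned counts. Another member lay within 100 bp of 0.659%, within 5 kb of 3.72%, and within 1 kb of 0.748% in thinned counts and 0.567% with sites within 32 bp merged. The median log2 ratio of neighbours was -0.68 at 30 reads and -0.18 in thinned counts, where all eligible sites had -0.15. The reference was not CCGG at 0.763% of members of 30 reads or more, which is 1 site. The share in masked sequence was 13.8% in thinned counts. The cause of these shifts was not tested, beyond the smaller sets that each minimum leaves. The other 31 values kept to within the counting interval of the reported ones, among them those without repeated 32 bp stretches, with sex chromosomes and without sites that have another row within 4 bp. Depth limits these results, since a site without a row of type M had 0 to 4 reads of that type and 2480 of 4248 members had 15 to 19 untreated reads. No paired analysis was possible because each condition has 1 library.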
